A study of Homo sapiens with 10 samples.

Results

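The circadian clock genes NR1D1, NR1D2, CLOCK, NPAS2, PER2, PER3, CRY1, CRY2, DBP and RORA were followed in the human multiple myeloma line MM.1S after knockdown of HDAC3 or of DNMT1. The 10 genes were chosen by name from what is known of the clock and of the nuclear receptor co-repressor NCoR, whose complex holds the histone deacetylase HDAC3. Each gene was read on the probe sets that the platform annotation gives to that gene alone, and the brightest of them, by its mean over 10 arrays, led. This left 29 probe sets of 9 genes, out of 19775 genes measured. NR1D1 has 3 probe sets on the array, each shared with another gene symbol, and was not read here.

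The groups were cells infected with lentivirus carrying shHDAC3#1 or shHDAC3#2, 2 hairpins against HDAC3; shDNMT1#1 or shDNMT1#2, 2 hairpins against the maintenance DNA methyltransferase DNMT1; and shLuc, a hairpin against luciferase. Each group had 2 arrays, so a knockdown has n = 4 and shLuc n = 2, and total RNA was taken 48 h after infection. All groups are the same cell line and all carry a lentiviral hairpin, so that no uninfected cells stand beside them. The labels name shLuc as the control of the HDAC3 hairpins, and both knockdowns share its 2 arrays. The DNMT1 arrays carry sample numbers from a later block than the shLuc and HDAC3 arrays. Whether the blocks were processed together is not stated. A difference between the blocks cannot be told apart from that of DNMT1 knockdown, against shLuc or against HDAC3 knockdown. The labels mention no synchronization of the cells, and there is 1 time point, so that the phase of the clock was not measured.

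In the clock of mammalian cells, CLOCK or its relative NPAS2 pairs with BMAL1, binds E-box sequences and switches on the PER and CRY genes, whose proteins return to the nucleus and inhibit that pair. In a second loop, the REV-ERB receptors (NR1D1 and NR1D2) repress BMAL1 and other genes by bringing NCoR and HDAC3 to DNA, and the ROR receptors (RORA among them) activate from the same elements. DBP is a transcription factor of the output arm that binds D-box sequences. Loss of HDAC3 from this complex is known in mouse liver to raise REV-ERB targets.

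Elements of this circuit were looked for in the 250 bases upstream of the annotated starts, on both strands. These were the E-box CACGTG, its variant CACGTT, the D-box (TTATGTAA or TTACGTAA) and the REV-ERB/ROR core (TAGGTCA or TGGGTCA). All 10 genes had a promoter in the RefSeq table of build GRCh38.p14, 14 promoters in all, and 7 of the 14 held at least 1 element, against 15.6% of the 35116 promoters of the table. Of these 35116 promoters, 6.34% held the E-box, 4.55% its variant, 0.94% the D-box and 4.82% the REV-ERB/ROR core. A match describes the letters only. The sequences shown belong to the members that were called in a knockdown. They run 5′ to 3′ on the gene's strand, with the element in capitals. For CRY1 the whole upstream window of its only start is given. For NR1D2, CLOCK and PER2 the window with the element lies inside the gene's annotated span, and 30 bases around each element are given. No matches overlapped each other.
CRY1 promoter, chr12:107093550-107093799 (-): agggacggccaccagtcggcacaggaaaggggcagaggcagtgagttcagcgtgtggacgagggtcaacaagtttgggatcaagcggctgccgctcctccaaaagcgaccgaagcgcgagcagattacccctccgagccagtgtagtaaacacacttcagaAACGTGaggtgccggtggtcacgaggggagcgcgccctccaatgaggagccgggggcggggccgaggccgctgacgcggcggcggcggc
NR1D2, D-box, chr3:23945916-23945945 (+): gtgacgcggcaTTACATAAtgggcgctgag
NR1D2, far E-box, chr3:23945954-23945983 (+): ggcgggcggggaCACGTGaggccgctcggc
NR1D2, REV-ERB/ROR core, chr3:23945977-23946006 (+): gctcggctcccTGACCCAcattccccgggg
NR1D2, near E-box, chr3:23946004-23946033 (+): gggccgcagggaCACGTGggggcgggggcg
CLOCK, REV-ERB/ROR core, chr4:55546131-55546160 (-): gctaggccttgTGACCCActttattcctgt
CLOCK, E-box variant, chr4:55546102-55546131 (-): tcaccactcgggCACGTTtggagcagcgcc
PER2, E-box variant, chr2:238288790-238288819 (-): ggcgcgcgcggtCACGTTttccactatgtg

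The element of CRY1 stands 89 to 84 bases before the start, on the opposite strand. NR1D2 held 4 matches of 3 kinds, with its E-boxes beginning 155 and 105 bases before the start, its D-box at 194 and its REV-ERB/ROR core at 133. CLOCK held a REV-ERB/ROR core at 217 bases and the variant E-box at 187 bases, and PER2 the variant at 197 bases before the start.

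The targets were read first. HDAC3 itself had log2 signals of 5.97 and 5.72 in shHDAC3#1 and 5.83 and 5.52 in shHDAC3#2, against 7.26 and 6.61 in shLuc, a fall to 44.2% of shLuc (log2 change -1.18 ± 0.16 SE, adjusted p = 1.17e-05). DNMT1 fell to 19.1% of shLuc in DNMT1 knockdown (-2.39 ± 0.10, adjusted p = 9.51e-12), and it also fell in HDAC3 knockdown (-0.92 ± 0.10, adjusted p = 1.59e-06). The HDAC3 call was lost with the hairpin as a random block (adjusted p = 0.108) and with the SD of each array as a covariate (-0.98, adjusted p = 0.364). HDAC3 in DNMT1 knockdown gave -0.36 ± 0.16 (adjusted p = 0.106). By hairpin it was -0.12 in shDNMT1#1 (adjusted p = 0.728) and -0.60, or 65.8% of shLuc, in shDNMT1#2, where it was called (adjusted p = 0.0186). Arrays of a group correlated with Pearson's r of 0.9937 to 0.9963 over all genes. The SD of the log2 values of an array lay between 1.84 and 1.91 in the knockdowns, and was 1.94 and 1.93 in the shLuc arrays. The 3′ minus 5′ difference of the ACTB probe sets, a sign of RNA quality, averaged 1.00 in shHDAC3#1, against 0.71 to 0.74 in the other groups. All 9 plasma cell markers measured had a mean above 5 (6.21 to 10.70), the level used here to mark dim probe sets. Such signal was also given by 1 of 4 T cell, 2 of 3 myeloid, 3 of 4 fibroblast and 2 of 3 epithelial markers measured, and levels of different probe sets cannot be set against each other. In RNA of a whole culture, fewer cells of a kind and less RNA per cell cannot be told apart.

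In HDAC3 knockdown, 4 of the 9 measured clock genes passed the test: NR1D2 and CLOCK rose by 0.30 and 0.48 on the log2 scale, and PER2 and CRY1 fell by 0.42 and 0.91. Over all genes 19.2% were called, 3.96% higher and 15.3% lower, at an adjusted p under 0.05 in limma. NPAS2, PER3, CRY2, DBP and RORA were not called. The median change of the 9 was 0.08, against 0.05 for all genes. Listed as genes repressed through NCoR and HDAC3, the 9 did not move one way: 2 were called higher, 2 lower and 5 in no direction. The 4 arrays of HDAC3 knockdown lay above both shLuc arrays for NR1D2 and CLOCK and below both for CRY1, 3 of 9 genes without overlap, against 37.9% of all genes.

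**Figure D1:**
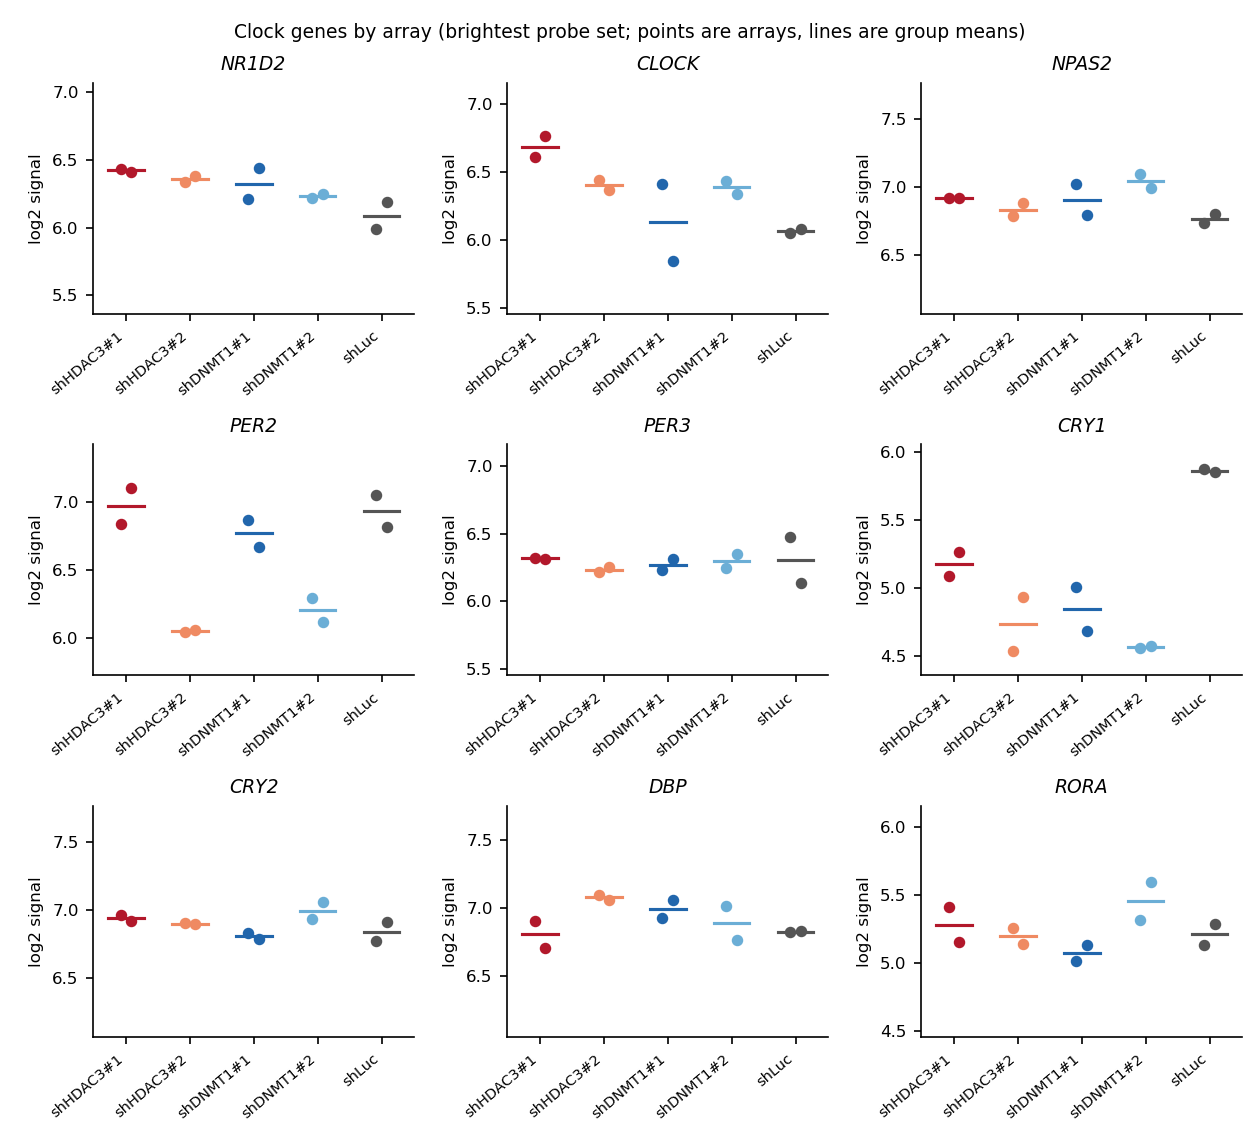
Log2 signal of the leading probe set of the 9 measured clock genes in each array, with groups along the horizontal axis; points are arrays, lines are means of 2 arrays, and every panel spans the same number of log2 units. CRY1 sits between 4.54 and 5.27 in the 8 knockdown arrays, below 5.85 and 5.88 in shLuc, and PER2 is low in shHDAC3#2 and shDNMT1#2.

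NR1D2 encodes REV-ERB-beta, the receptor that recruits NCoR and HDAC3 alongside REV-ERB-alpha. Its log2 signals were 6.43 and 6.41 in shHDAC3#1, 6.34 and 6.38 in shHDAC3#2, 6.21 and 6.44 in shDNMT1#1, and 6.22 and 6.25 in shDNMT1#2, against 5.99 and 6.19 in shLuc. On this leading probe set, though not on the second one, all 8 knockdown arrays lay above both shLuc arrays. The order of the group means was shHDAC3#1, shHDAC3#2, shDNMT1#1, shDNMT1#2 and shLuc, and shDNMT1#1 overlapped its neighbours on both sides. Against shLuc the change was 0.30 ± 0.10 in HDAC3 knockdown (adjusted p = 0.0393), or 123% of shLuc, and 0.19 ± 0.10 in DNMT1 knockdown (adjusted p = 0.184). By hairpin it was 0.33 in shHDAC3#1 (adjusted p = 0.041) and 0.27 in shHDAC3#2 (adjusted p = 0.172). The call of NR1D2 in HDAC3 knockdown was lost without shLuc replicate 1 (0.20, adjusted p = 0.462) and without any 1 of the 4 HDAC3 arrays (adjusted p = 0.0698 to 0.0976).

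CLOCK encodes the subunit that pairs with BMAL1 to drive E-box genes. Its log2 signals were 6.61 and 6.76 in shHDAC3#1, 6.44 and 6.37 in shHDAC3#2, 6.41 and 5.85 in shDNMT1#1, and 6.43 and 6.34 in shDNMT1#2, against 6.05 and 6.08 in shLuc. The shHDAC3#1 arrays were the highest, and 1 shDNMT1#1 array was the lowest of the 10. CLOCK rose to 139% of shLuc in HDAC3 knockdown (0.48 ± 0.12, adjusted p = 0.00738), with 0.62 in shHDAC3#1 (adjusted p = 0.00256) and 0.34 in shHDAC3#2 (adjusted p = 0.159). The change in DNMT1 knockdown was 0.19 ± 0.12 (adjusted p = 0.274). Without shLuc replicate 1 the adjusted p in HDAC3 knockdown was 0.127 (0.46), and without shDNMT1#1 replicate 2, the low array, CLOCK was called in DNMT1 knockdown too (0.33, adjusted p = 0.0252). Its relative NPAS2, which can take CLOCK's place beside BMAL1, gave 0.11 ± 0.09 in HDAC3 knockdown and 0.21 ± 0.09 in DNMT1 knockdown (adjusted p = 0.425 and 0.122). NPAS2 ranged from 6.79 to 6.92 over the HDAC3 arrays and 6.80 to 7.09 over the DNMT1 arrays, against 6.74 and 6.80 in shLuc.

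Among the inhibitors of the CLOCK and BMAL1 pair, CRY1 fell furthest. CRY1 encodes a cryptochrome that represses E-box transcription. Its log2 signals were 5.09 and 5.27 in shHDAC3#1, 4.54 and 4.94 in shHDAC3#2, 5.01 and 4.68 in shDNMT1#1, and 4.56 and 4.58 in shDNMT1#2, against 5.88 and 5.85 in shLuc. Every knockdown array lay below both shLuc arrays, and the 4 hairpins overlapped in part. CRY1 fell to 53.3% of shLuc in HDAC3 knockdown (-0.91 ± 0.12, adjusted p = 1.41e-05) and to 44.8% in DNMT1 knockdown (-1.16 ± 0.12, adjusted p = 8.07e-07). It was called with each hairpin: -0.69 in shHDAC3#1, -1.13 in shHDAC3#2, -1.02 in shDNMT1#1 and -1.30 in shDNMT1#2, with adjusted p between 6.62e-07 and 0.00117. No 1 array decided these 2 calls. They were lost with the hairpin as a random block, at adjusted p = 0.0962 in HDAC3 knockdown and 0.0541 in DNMT1 knockdown, and with the SD of each array as a covariate (-0.31 and -0.54, adjusted p = 0.994 and 0.574), a measure in which all shLuc arrays lay above all knockdown arrays. CRY1 is also the dimmest of the leading probe sets, with a mean of 5.04 over the 10 arrays.

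PER2, which encodes a period protein that carries cryptochromes into the repressing complex, was low with 1 hairpin of each target. Its log2 signals were 6.84 and 7.10 in shHDAC3#1, 6.05 and 6.06 in shHDAC3#2, 6.87 and 6.67 in shDNMT1#1, and 6.29 and 6.12 in shDNMT1#2, against 7.06 and 6.82 in shLuc. The arrays of shHDAC3#2 and shDNMT1#2 lay below all others, while shHDAC3#1 and shDNMT1#1 overlapped shLuc. The mean change was -0.42 ± 0.11 in HDAC3 knockdown (adjusted p = 0.0072) and -0.45 ± 0.11 in DNMT1 knockdown (adjusted p = 0.00478). By hairpin it was 0.04 in shHDAC3#1 (adjusted p = 0.854) and -0.88 in shHDAC3#2 (adjusted p = 3.03e-05), and -0.16 in shDNMT1#1 (adjusted p = 0.465) and -0.73 in shDNMT1#2 (adjusted p = 0.000138). The mean of a target's 2 hairpins therefore describes neither hairpin for PER2. Without shLuc replicate 1 the calls were lost (-0.30 in HDAC3 knockdown, adjusted p = 0.257, and -0.33 in DNMT1 knockdown, adjusted p = 0.204).

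The remaining period and cryptochrome genes were not called. PER3, another period gene, lay between 6.21 and 6.32 in the HDAC3 arrays and between 6.23 and 6.35 in the DNMT1 arrays, inside the shLuc pair of 6.48 and 6.14. CRY2, the second cryptochrome, lay between 6.89 and 6.96 in the HDAC3 arrays and between 6.79 and 7.06 in the DNMT1 arrays, against 6.77 and 6.91 in shLuc. CRY2 gave 0.08 ± 0.09 in HDAC3 knockdown, with a 95% interval of -0.11 to 0.27 that leaves out a fall of the size seen for CRY1. The 4 arrays of each knockdown overlapped shLuc for both genes, and neither gene passed the test in either knockdown (adjusted p = 0.552 to 0.9). Some groups of 2 arrays stood apart. For CRY2, shHDAC3#1 and shDNMT1#2 lay above both shLuc arrays, shHDAC3#1 above shHDAC3#2 and shDNMT1#1 below shDNMT1#2, and for PER3 shHDAC3#1 lay above shHDAC3#2. None of these differences was called, the widest being -0.18 ± 0.10 for CRY2 between the DNMT1 hairpins (adjusted p = 0.294).

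DBP, the D-box activator, had log2 signals of 6.90 and 6.71 in shHDAC3#1, 7.10 and 7.06 in shHDAC3#2, 6.93 and 7.06 in shDNMT1#1, and 7.01 and 6.77 in shDNMT1#2, against 6.83 and 6.83 in shLuc. It gave 0.12 ± 0.10 in HDAC3 knockdown and 0.12 ± 0.10 in DNMT1 knockdown (adjusted p = 0.414 and 0.41), and both ranges took in shLuc. RORA, the activator that shares its elements with REV-ERB, ranged from 5.14 to 5.41 in the HDAC3 arrays and from 5.01 to 5.60 in the DNMT1 arrays, against 5.13 and 5.28 in shLuc. Its changes were 0.03 ± 0.12 and 0.06 ± 0.12 in HDAC3 and DNMT1 knockdown, with 95% intervals of -0.21 to 0.27 and -0.18 to 0.30. The DNMT1 mean joins hairpins on opposite sides of shLuc. Both shDNMT1#1 arrays lay below the shLuc pair (-0.14, adjusted p = 0.582) and both shDNMT1#2 arrays above it (0.25, adjusted p = 0.168). RORA gave -0.39 ± 0.13 for shDNMT1#1 minus shDNMT1#2 (adjusted p = 0.0632), a difference that was called without shDNMT1#2 replicate 1. The range of its group means, 0.39, was wider than that of NR1D2, 0.33.

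In DNMT1 knockdown, 2 of the 9 clock genes were called, PER2 and CRY1, both lower, where 20.2% of all genes were called, 6.66% higher and 13.5% lower. The arrays did not overlap shLuc for NR1D2, which lay above, and for CRY1, against 34.1% of all genes. The median of the 9 was 0.06, against 0.07 for all genes. The test of HDAC3 knockdown minus DNMT1 knockdown, which does not use shLuc, called 0 of the 9, where 9.59% of all genes were called, and the arrays of the knockdowns overlapped for all 9 (5.2% of all genes did not overlap). In limma, 2 of the 9 had an unadjusted p under 0.05 in it, as had 21.9% of all genes: CLOCK with 0.29 ± 0.10 (adjusted p = 0.0762) and CRY1 with 0.25 ± 0.10 (adjusted p = 0.137). The intervals of these 2 differences ran from 0.08 to 0.49 and from 0.04 to 0.46. Leaving out shDNMT1#1 replicate 1 gave 0.43 for CLOCK and 0.33 for CRY1. That left shDNMT1#1 with 1 array, the lower of its 2 for both genes. For CLOCK it was 5.85, against 6.41 in the array left out, and for CRY1 4.68, against 5.01. Over 22 alternatives the difference ran from 0.11 to 0.43 for CLOCK and from 0.15 to 0.35 for CRY1.

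**Figure D2:**
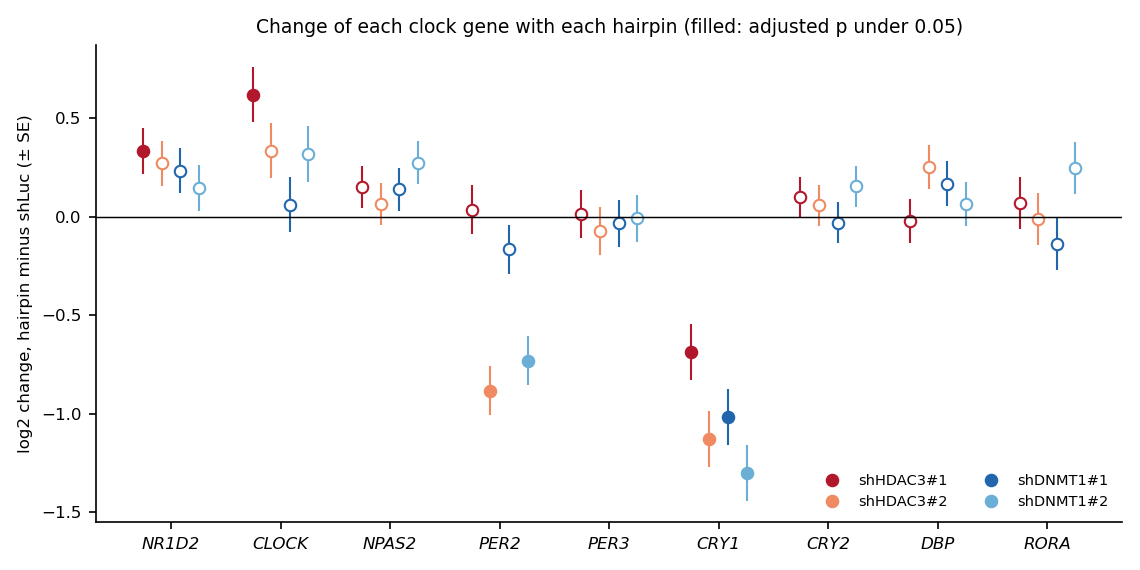
Log2 change of each measured clock gene with each hairpin against shLuc, with limma's standard error as bars; filled points have an adjusted p under 0.05. CRY1 is filled with all 4 hairpins, PER2 with shHDAC3#2 and shDNMT1#2 alone, and NR1D2 and CLOCK with shHDAC3#1 alone.

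Hairpin by hairpin, 3 of the 9 clock genes were called with shHDAC3#1, 2 with shHDAC3#2, 1 with shDNMT1#1 and 2 with shDNMT1#2, where 24.4%, 10.9%, 8.15% and 26.8% of all genes were. The hairpins of a target were also set against each other. Between shHDAC3#1 and shHDAC3#2, 2 of 9 clock genes were called, where 12.6% of all genes were. PER2 was 0.92 ± 0.12 higher in shHDAC3#1 than in shHDAC3#2 (adjusted p = 1.42e-05), and CRY1 was 0.44 ± 0.14 higher (adjusted p = 0.0458). Between shDNMT1#1 and shDNMT1#2, 1 of 9 was called, where 12% of all genes were: PER2, 0.57 ± 0.12 higher in shDNMT1#1 (adjusted p = 0.00334). The PER2 difference between the HDAC3 hairpins held in all 13 alternatives tried, at 0.71 to 1.05. The CRY1 difference was called in 3 of 13, and the PER2 difference between the DNMT1 hairpins in 12 of 13, failing without shDNMT1#2 replicate 2 (adjusted p = 0.0676). The values of ACTB stand apart in shHDAC3#1 as given above, and their part in these differences was not tested.

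Genes with several probe sets gave a further reading of the same arrays. With each of 41091 probe sets as a feature, 14.9% were called in HDAC3 knockdown and 15.7% in DNMT1 knockdown. Both NR1D2 probe sets were higher in HDAC3 knockdown, at 0.30 ± 0.10 and 0.56 ± 0.13 (adjusted p = 0.0479 and 0.00563). The second NR1D2 probe set gave 0.80 in shHDAC3#1 (adjusted p = 0.000806) and 0.32 in shHDAC3#2 (adjusted p = 0.271). In DNMT1 knockdown it gave 0.21 ± 0.13 (adjusted p = 0.293), and its arrays overlapped shLuc. It gave 0.03 in shDNMT1#1 (adjusted p = 0.943) and 0.39 in shDNMT1#2 (adjusted p = 0.0725). Its value in shDNMT1#1 replicate 2, 5.36, lay below both shLuc arrays (5.43 and 5.78). Of the 4 CLOCK probe sets, 3 were called higher in HDAC3 knockdown, at 0.48, 0.61 and 0.49, while the fourth gave 0.06 ± 0.10 (adjusted p = 0.736).

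In DNMT1 knockdown 1 of the 4 CLOCK probe sets was called, at 0.51 ± 0.10 (adjusted p = 0.00159). That probe set gave -0.02 ± 0.08 for HDAC3 minus DNMT1 knockdown (adjusted p = 0.929), and the leading one 0.29 ± 0.10 (adjusted p = 0.0919). The call of CLOCK in DNMT1 knockdown thus depends on the probe set read. The second PER2 probe set, dim at a mean of 4.29, was not called in either knockdown (0.08 ± 0.12 and -0.07 ± 0.12). It did separate the HDAC3 hairpins, with shHDAC3#1 0.50 ± 0.14 above shHDAC3#2 (adjusted p = 0.0245), and gave 0.44 ± 0.14 between the DNMT1 hairpins (adjusted p = 0.0533). CRY1 and CRY2 have 1 probe set each, so that the fall of CRY1 has no second reading. None of the 5 NPAS2, 4 PER3, 2 DBP and 8 RORA probe sets was called in either knockdown. Of these, 1 RORA probe set, dim at a mean of 3.87, was lower in shDNMT1#2 (-0.52 ± 0.18, adjusted p = 0.0426) and gave 0.41 ± 0.13 for HDAC3 minus DNMT1 knockdown (adjusted p = 0.0477). Its direction in shDNMT1#2 is opposite to that of the leading RORA probe set.

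**Figure D3:**
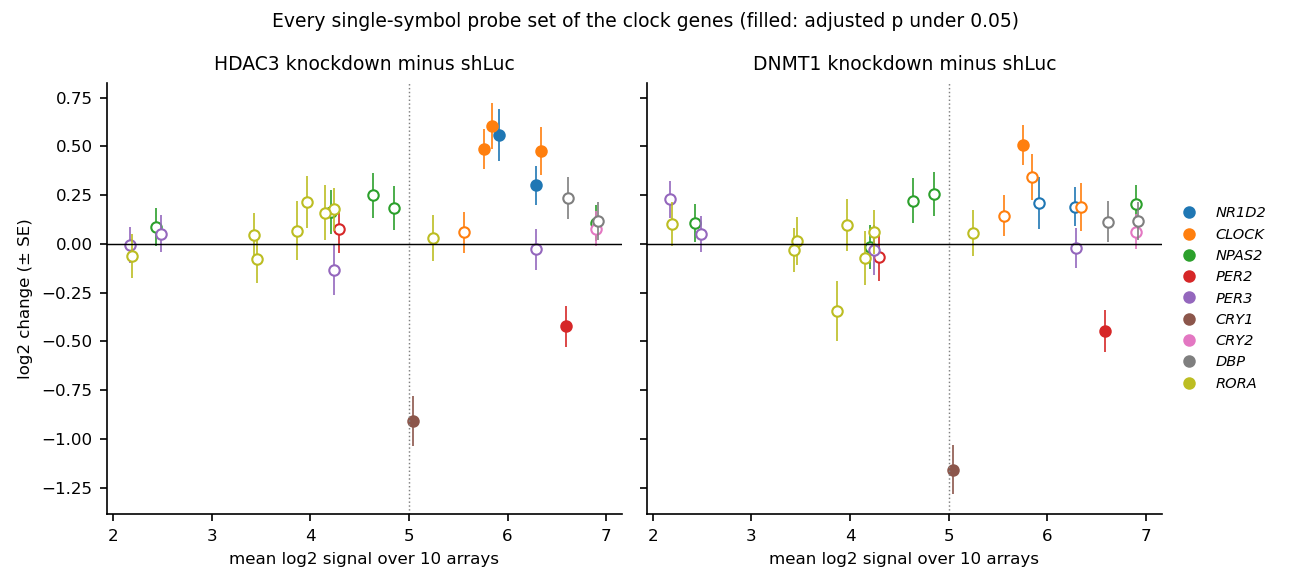
Log2 change of all 29 probe sets of the measured clock genes in HDAC3 knockdown (left) and DNMT1 knockdown (right) against their mean log2 signal over the 10 arrays, with standard errors; filled points have an adjusted p under 0.05 over 41091 probe sets, and the dotted line marks a log2 signal of 5. All called probe sets lie right of that line; CLOCK and NR1D2 are the filled points above 0, and PER2 and CRY1 those below.

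CRY1 had the widest range of group means among the clock genes, 1.30 on the log2 scale, followed by PER2 with 0.92 and CLOCK with 0.62, and PER3 had the narrowest, 0.09. Among 19268 genes, the 3 whose centred log2 values lay closest to those of CRY1 over the 10 arrays were MCM6, TNFAIP8 and BRIP1, with root mean square differences of 0.108, 0.124 and 0.125. MCM6 encodes a subunit of the replicative helicase, TNFAIP8 a regulator of cell death and BRIP1 a DNA helicase that binds BRCA1. All 3 were lower in all 8 knockdown arrays than in shLuc, with changes of -0.89, -0.92 and -1.15 in HDAC3 knockdown and of -1.002, -1.20 and -1.26 in DNMT1 knockdown. They were picked for this likeness, so their changes are a description.

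Other genes of the clock were read from lists set up with earlier results of these data known. Of the core genes outside the members, 5 of 7 were measured. BMAL1, the partner of CLOCK and a classical REV-ERB target, was not called in HDAC3 knockdown (-0.18 ± 0.11, adjusted p = 0.247). It fell in DNMT1 knockdown (-0.44 ± 0.11, adjusted p = 0.00535), a call lost without shLuc replicate 1 (-0.35, adjusted p = 0.169) and over the mean of its probe sets (-0.15, adjusted p = 0.135). TIMELESS, best known in mammals for its role at replication forks, fell by 1.07 ± 0.10 in HDAC3 knockdown and by 0.55 ± 0.10 in DNMT1 knockdown (adjusted p = 2.66e-07 and 0.000565). That reading rests on a probe set that can cross-hybridize, and without such probe sets TIMELESS gave 0.16 and -0.01 (adjusted p = 0.371 and 0.947). Among the targets and members, the leading probe sets of HDAC3, DNMT1, NPAS2, PER3 and DBP are of that same class. BMAL2, RORB and CIART were not called in either knockdown.

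Among the modifiers of clock proteins, 5 of 13 measured were lower in HDAC3 knockdown and 0 higher, and 4 of 13 were lower in DNMT1 knockdown and 0 higher. Of all genes, 15.3% were lower and 3.96% higher in HDAC3 knockdown, and 13.5% lower and 6.66% higher in DNMT1 knockdown. FBXW11, a ubiquitin ligase subunit that recognises phosphorylated PER proteins, fell by 0.54 ± 0.11 in HDAC3 knockdown and by 0.75 ± 0.11 in DNMT1 knockdown. The deacetylase SIRT1 fell by 0.54 ± 0.14 and 0.66 ± 0.14, the kinase GSK3B by 0.35 ± 0.11 and 0.55 ± 0.11, and the casein kinase 2 subunit CSNK2B by 0.40 ± 0.10 and 0.28 ± 0.10, in the same order of knockdowns. Without shLuc replicate 1, FBXW11 gave -0.33, GSK3B -0.22 and CSNK2B -0.25 in HDAC3 knockdown and CSNK2B -0.14 in DNMT1 knockdown, none of them called. Over the mean of its probe sets GSK3B gave -0.03 and -0.06 in HDAC3 and DNMT1 knockdown and was not called. SIRT1 was called with shHDAC3#1 (-0.74) and shDNMT1#2 (-0.85). It was not called with shHDAC3#2 (-0.34, adjusted p = 0.227) or shDNMT1#1 (-0.47, adjusted p = 0.0792). CSNK2B was called with 1 hairpin of each target: it gave -0.67 in shHDAC3#1 and -0.12 in shHDAC3#2, and -0.09 in shDNMT1#1 and -0.48 in shDNMT1#2. Its call in DNMT1 knockdown lay near the threshold (adjusted p = 0.0463). That call was lost after quantile normalization (-0.13, adjusted p = 0.287), with array weights (adjusted p = 0.0588) and with the replicate block (adjusted p = 0.0601). PRKAA1, a catalytic subunit of AMP kinase that marks cryptochromes for decay, fell by 0.56 ± 0.13 in HDAC3 knockdown (adjusted p = 0.004) and gave -0.17 ± 0.13 in DNMT1 knockdown. That call was lost without shLuc replicate 2 (-0.37, adjusted p = 0.12) and over the mean of its probe sets (-0.23, adjusted p = 0.0539). The casein kinase 1 genes CSNK1D and CSNK1E gave -0.06 and 0.13 in HDAC3 knockdown and were not called.

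Of the clock output genes, 14 of 15 were measured, and 4 were higher and 4 lower in HDAC3 knockdown, where 3.96% of all genes were higher and 15.3% lower. The repressor BHLHE40 fell by 0.91 ± 0.13 and its relative BHLHE41 rose by 0.36 ± 0.11 (adjusted p = 3.15e-05 and 0.0301). BHLHE41 was called with neither HDAC3 hairpin alone, at 0.33 in shHDAC3#1 and 0.38 in shHDAC3#2 (adjusted p = 0.0679 and 0.0689). The BHLHE41 call was lost without shLuc replicate 1 (0.28) or shLuc replicate 2 (0.43). It was also lost without either shHDAC3#1 array (0.37 and 0.34) and without shHDAC3#2 replicate 1 (0.29). The factor KLF10 fell by 0.82 ± 0.14, the cell-cycle kinase WEE1 by 0.42 ± 0.10 and GADD45A, a stress gene, by 0.35 ± 0.09. TEF, a D-box activator related to DBP, rose by 0.30 ± 0.09. The TEF call was lost without shLuc replicate 1 (0.17, adjusted p = 0.515), without replicate 1 of either HDAC3 hairpin (adjusted p = 0.103 and 0.107) and over the mean of its probe sets (0.18, adjusted p = 0.0762). WEE1 gave -0.26 without shLuc replicate 1 (adjusted p = 0.303), and after quantile normalization WEE1 gave -0.25 and GADD45A -0.10, neither called. HMOX1 and CDKN1A were called higher at 0.34 and 0.29, but by hairpin HMOX1 gave -0.12 in shHDAC3#1 and 0.80 in shHDAC3#2, and CDKN1A, the inhibitor p21, 0.59 in shHDAC3#1 and -0.01 in shHDAC3#2.

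In DNMT1 knockdown 2 of the 14 output genes were higher and 6 lower, where 6.66% of all genes were higher and 13.5% lower. CDKN1A rose by 1.15 ± 0.08 and TEF by 0.32 ± 0.09, while KLF10 fell by 0.74 ± 0.14, PPARGC1A by 0.62 ± 0.11, WEE1 by 0.57 ± 0.10, NFIL3 by 0.43 ± 0.10, BHLHE40 by 0.38 ± 0.13 and NAMPT by 0.29 ± 0.09. After quantile normalization NFIL3 gave -0.15 and NAMPT -0.12, and without shLuc replicate 1 TEF gave 0.19, none of them called. BHLHE40 gave -0.18 in shDNMT1#1 (adjusted p = 0.52) and -0.59 in shDNMT1#2 (adjusted p = 0.00718). Over the mean of its probe sets BHLHE40 gave -0.26 and was not called (adjusted p = 0.112). KLF10 gave -0.38 in shDNMT1#1 (adjusted p = 0.183) and -1.11 in shDNMT1#2 (adjusted p = 3.02e-05). PPARGC1A, a metabolic co-activator, was not called in HDAC3 knockdown, where its hairpins went opposite ways (0.61 in shHDAC3#1 and -0.40 in shHDAC3#2). Over these 3 lists together, 14 of 32 genes were called in each knockdown, where 19.2% and 20.2% of all genes were called in HDAC3 and DNMT1 knockdown. With the hairpin as a random block all 14 calls were lost in each knockdown. With both hairpins as 1 group 14 were lost in HDAC3 knockdown and 13 in DNMT1 knockdown, as they were with the array SD as a covariate. Without shLuc replicate 1, 5 of the 14 kept their call in HDAC3 knockdown and 4 of the 14 in DNMT1 knockdown. Whichever array was left out, TIMELESS, BHLHE40 and KLF10 kept their call in HDAC3 knockdown, and TIMELESS, FBXW11, PPARGC1A and CDKN1A in DNMT1 knockdown. Of these, only CDKN1A was also called with both hairpins as 1 group or with the array SD, and with the random block none was (KLF10 in HDAC3 knockdown, for example, had adjusted p = 0.128 with both hairpins as 1 group and 0.287 with the random block).

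**Figure D4:**
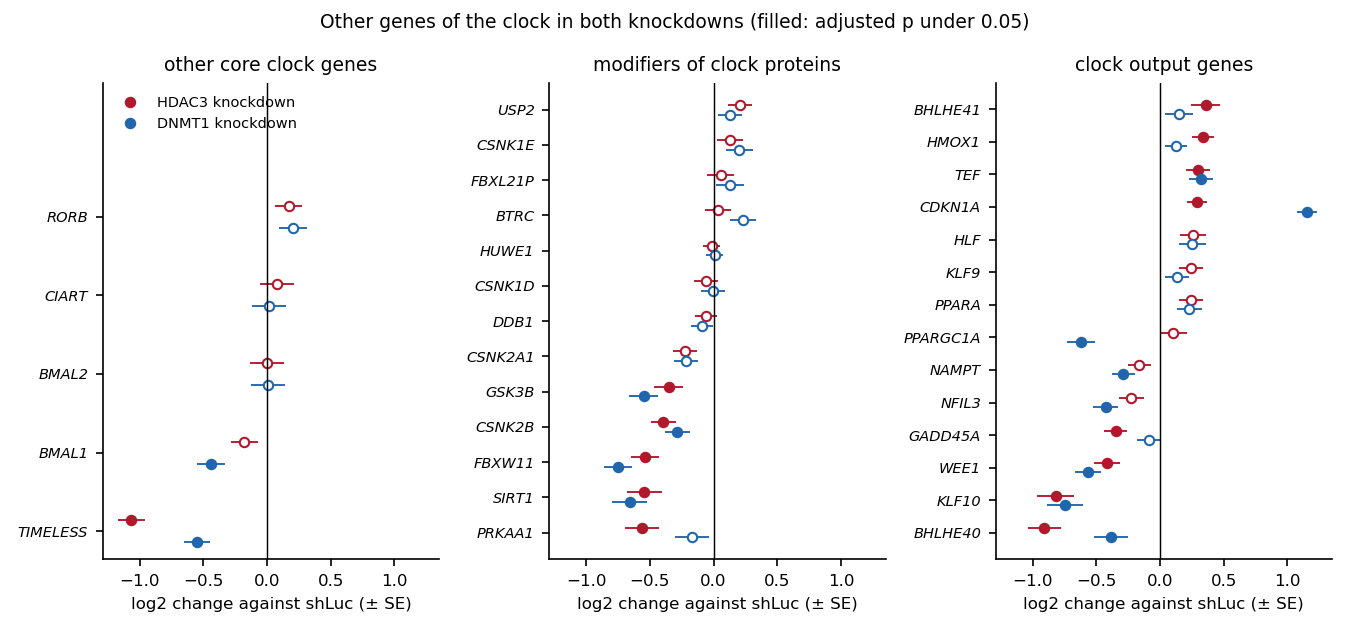
Log2 change of the measured genes of 3 lists in HDAC3 knockdown (red, upper point of each pair) and DNMT1 knockdown (blue), with standard errors; filled points have an adjusted p under 0.05. No core gene or modifier is filled to the right of 0, and CDKN1A in DNMT1 knockdown, at 1.15, lies furthest right.

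The co-repressor complex itself was read on 4 genes, HDAC3 included. In HDAC3 knockdown, where 15.3% of all genes were lower, 3 of the 4 were lower: HDAC3, TBL1XR1 at -1.19 ± 0.08 (adjusted p = 2.52e-09) and GPS2 at -0.70 ± 0.12 (adjusted p = 0.00021). TBL1XR1 and GPS2 are subunits of the NCoR complex. TBL1X, the relative of TBL1XR1, gave -0.08 ± 0.08 (adjusted p = 0.521). With the hairpin as a random block TBL1XR1 was still called, and HDAC3 and GPS2 were not (adjusted p = 0.108 and 0.211). In DNMT1 knockdown GPS2 fell by 0.49 ± 0.12 (adjusted p = 0.00624), a call lost without shLuc replicate 1 (-0.33, adjusted p = 0.284). It was the 1 gene of the 4 called there, where 13.5% of all genes were lower. By hairpin, 0 of the 4 were called with shDNMT1#1 and 3 of the 4, all lower, with shDNMT1#2: HDAC3 at -0.60, GPS2 at -0.66 (adjusted p = 0.00125) and TBL1XR1 at -0.42 (adjusted p = 0.0025).

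The 4 calls of HDAC3 knockdown were not equally stable over the 25 alternatives run. CRY1 was called in 23 of them, CLOCK in 20, PER2 in 19 and NR1D2 in 16. With both hairpins of a target treated as 1 group, CRY1 was the only member called in either knockdown, and with the hairpin as a random block none was. With shHDAC3#2 alone, PER2 (-0.88) and CRY1 (-1.13) were called, and NR1D2 (0.27) and CLOCK (0.34) were not. The difference of shHDAC3#1 minus shHDAC3#2 was 0.06 for NR1D2 (adjusted p = 0.835) and 0.28 for CLOCK (adjusted p = 0.243).

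**Figure D5:**
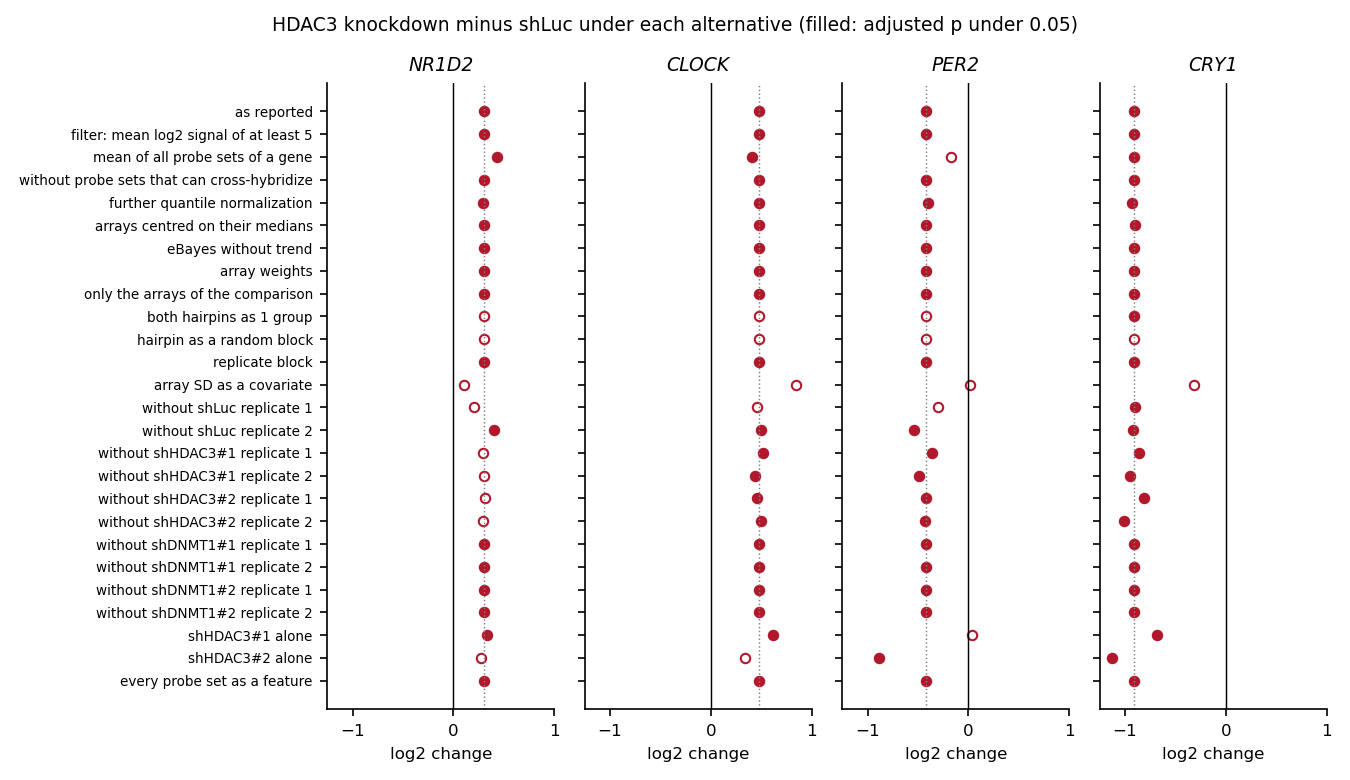
Log2 change in HDAC3 knockdown of the 4 called clock genes as reported (top line, dotted) and under each alternative, with filled points at an adjusted p under 0.05. CRY1 stays below 0 throughout (-1.13 to -0.31), CLOCK and NR1D2 stay above 0, and PER2 runs from -0.88 to 0.04.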

How the data were processed

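The arrays are Affymetrix 3′ expression arrays of 54675 probe sets. Per the submitters' processing notes the authors made the deposited values with RMA; no version is given in the sources used here, nor whether all arrays went through 1 run. The log2 unit was taken from the deposited values. RMA values near background understate changes, and the number of arrays limits the precision. Replicates are not said to be separate cultures, so the p-values reflect the spread of these arrays alone, which could be technical.

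Of the probe sets, 41097 carry 1 gene symbol in the platform annotation, 1801 several and 11777 none. The single-symbol probe set with the highest mean stood for each of 19775 genes. limma 3.58.1 in R 4.3.3 (lmFit, eBayes with trend) fitted all 5 groups in 1 model, with 5 residual degrees of freedom. For a knockdown, both hairpins were averaged and shLuc subtracted. Tests were two-sided, adjusted with Benjamini-Hochberg over all genes, and called at 0.05; errors after ± are limma's standard errors. Differences between hairpins of a target are not in that error. The fit was tested on simulated data.

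The members and lists were chosen with earlier results of these data known. Named were all members, the targets, the list genes called in a knockdown, and the 3 genes most like the member with the widest range; others are named beside them as not called, chosen after their values were seen. Some list entries are not reported here. The difference of replicate 1 minus replicate 2 over all genes was correlated between groups, with r from -0.34 (shHDAC3#2 with shDNMT1#1) to 0.27. An r above 0.1 was seen in 2 of 10 group pairs, shDNMT1#1 with shLuc (0.27) and shHDAC3#1 with shHDAC3#2 (0.14). The alternatives changed the probe set filter or summary, normalization, centring, variance trend, array weights, arrays fitted, treatment of hairpins, replicate block, array SD and each array in turn; each hairpin alone and every probe set as a feature were added after seeing the data.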

Additional observations from a re-analysis of the deposited data

Results flagged for a closer look

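PER2 differed between the 2 hairpins of each target by limma's test of the difference itself. It was 0.92 higher in shHDAC3#1 than in shHDAC3#2 (adjusted p = 1.42e-05) and 0.57 higher in shDNMT1#1 than in shDNMT1#2 (adjusted p = 0.00334). CRY1 also differed between the HDAC3 hairpins, 0.44 higher in shHDAC3#1 (adjusted p = 0.0458), while it lay below shLuc with both. No group had enough arrays for a test of single outlying arrays.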

How the results depend on the processing

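The number of clock genes called in HDAC3 knockdown, 4, became 1 with both hairpins as 1 group, 0 with the hairpin as a random block, 0 with the array SD as a covariate and 2 with shHDAC3#2 alone. In DNMT1 knockdown the 2 calls became 1, 0 and 0 under the first 3 of these and 1 with shDNMT1#1 alone. Between the knockdowns, 0 became 1 with the array SD (CLOCK). Between the HDAC3 hairpins, 2 became 1 with quantile normalization and 1 with the replicate block. That replicate block left 4, 2 and 1 calls in HDAC3 knockdown, DNMT1 knockdown and between the DNMT1 hairpins. Leaving out 1 array gave 1 to 4 calls in HDAC3 knockdown (1 without shLuc replicate 1), 1 to 3 in DNMT1 knockdown (1 without shLuc replicate 1), 0 to 2 between the knockdowns (2 without shDNMT1#1 replicate 1), 1 to 2 between the HDAC3 hairpins and 0 to 2 between the DNMT1 hairpins (0 without shDNMT1#2 replicate 2).

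With the array SD as a covariate, these called changes turned sign, none of them then called: in HDAC3 knockdown PER2 (0.018), CSNK2B (0.10), GSK3B (0.28), TEF (-0.090), BHLHE41 (-0.18), WEE1 (0.011) and GADD45A (0.079), and in DNMT1 knockdown PER2 (0.0088), CSNK2B (0.23), GSK3B (0.10), TEF (-0.080), NFIL3 (0.16), BHLHE40 (0.080), NAMPT (0.14) and GPS2 (0.047). By 1 hairpin, PER2 (0.036) and HMOX1 (-0.12) turned in shHDAC3#1, and CDKN1A (-0.012) and PPARGC1A (-0.40, called) in shHDAC3#2. TIMELESS turned in HDAC3 knockdown without probe sets that can cross-hybridize (0.16). The mean of the 2 PER2 probe sets gave -0.17 in HDAC3 knockdown, not called. Over the members and named genes, 1465 alternative values kept direction and side of the threshold, 63 that were called in neither setting had the other sign, 207 lost a call, 14 gained one and 20 turned with a call in 1 of the settings.

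Over all genes, the 3801 calls of HDAC3 knockdown became 362 with both hairpins as 1 group, 73 with the random block, 114 with the array SD, 1410 without shLuc replicate 1, 2501 without probe sets that can cross-hybridize and 2146 with shHDAC3#2 alone. The 3992 of DNMT1 knockdown became 326, 31, 119 and 1365 under the first 4 of these and 1611 with shDNMT1#1 alone. Of the calls in HDAC3 knockdown 79.4% were lower, and 55.6% after quantile normalization; in DNMT1 knockdown 67.0%, 53.8% after quantile normalization. Apart from effects that the settings' own construction gives, the cause was not tested. With 2 arrays a group and 1 probe set for CRY1, a change in a dim gene of the size of the replicate spread cannot be seen here.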
